A study of Mus musculus with 12 samples.

Results

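Prostaglandin E2 (PGE2) is made from arachidonic acid (AA), a membrane fatty acid, and Ptger4 encodes EP4, one of the receptors for PGE2. The question here was whether the H3K27ac response of mouse intestinal organoids to AA differed when Ptger4 was knocked out. H3K27ac, acetylation of lysine 27 on histone H3, marks active promoters and enhancers, and it was measured by CUT&RUN, in which DNA beside an antibody-bound histone is cut free and sequenced. The comparison rests on 8 of the 12 libraries in the series: wild type (WT) with vehicle, WT with AA, Ptger4 knockout (KO) with vehicle and KO with AA, 2 libraries each. The other 4 libraries, WT and KO with PGE2, entered the statistical fit only as an additional measure of the spread between replicates, and one contrast that uses them directly is given at the end.

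AA was given at 25 µM and PGE2 at 50 nM. The sample characteristics give a time of day 3 and the treatment protocol gives 6 days, and the design text names a dimethyl form of PGE2. All organoids were grown from isolated crypts in Matrigel in one medium with EGF, Noggin, R-spondin, the GSK3 inhibitor CHIR-99021 and the ROCK inhibitor Y-27632, so the Wnt agonists R-spondin and CHIR-99021 were present in both genotypes and all treatments. The labels give no allele, deleted exon, strain, age or number of mice behind the KO, and nothing in them ties replicate libraries to different cultures or animals. The p-values therefore measure only the spread between these libraries, which may be technical.

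As background, phospholipases release AA from membranes, cyclooxygenases (Ptgs1 and Ptgs2) turn it into prostaglandin H2, and PGE synthases (Ptges and its relatives) make PGE2. EP4 couples to the stimulatory G protein, so PGE2 raises cAMP, protein kinase A phosphorylates CREB, and CREB recruits CBP and p300, the acetyltransferases that place H3K27ac. In the intestine, PGE2 is known for supporting crypt stem cells and epithelial repair. AA also gives rise to other prostanoids and leukotrienes and serves as fuel, so a response to AA need not pass through EP4.

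The value analysed was the deposited score, a non-negative signal per interval and library, at 166471 intervals called with SEACR and 701 called with MACS2. The AA response in a genotype is the difference of mean log2 scores, AA minus vehicle. The interaction is the KO response minus the WT response: a positive value means that AA left the score relatively higher in KO than in WT, and a negative value relatively lower. Errors of log2 values are standard errors (SE) and errors of scores are standard deviations (SD, n = 2). Spearman correlations between the 2 libraries of a group lay between 0.369 and 0.455 in the 4 compared groups, and the median score of the 8 libraries lay between 0.112 and 0.122. The KO PGE2 libraries stood apart, with a correlation of 0.130 between them and a median score of 0.0941 in replicate 2. How many reads lie behind a score is unknown.

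Epithelial markers carried more H3K27ac than markers of cell types outside the epithelium. At the strongest interval of each gene, the median score of the 15 epithelial markers (such as Epcam and Cdh1) lay between 0.206 and 0.297 across the 8 libraries. All genes lay at 0.151 to 0.172, immune markers at 0.0933 to 0.147 and fibroblast markers at 0.109 to 0.138. Neural and glial markers lay at 0.0937 to 0.132. Endothelial markers lay at 0.136 to 0.197, so they were below the epithelial markers but reached above all genes. No marker of these lists was at 0 in any of the 8 libraries. H3K27ac in bulk organoids cannot tell apart fewer cells of a type and less of the mark per cell.

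At single intervals, no dependence on Ptger4 passed the test. Of 166471 SEACR intervals, 0 had an adjusted p under 0.05 (limma, Benjamini-Hochberg), and the smallest adjusted p was 0.9998. At an unadjusted p under 0.05 there were 6885 intervals (4.14%), of which 3780 were higher (2.27%) and 3105 lower (1.87%), a positive share of 54.9% that became 40.6% after each library was centred on its median. The median SE of an interaction was 0.467 and the median 95% interval, before adjustment, reached 0.959 to either side on the log2 scale. A typical interval needed more than about that size for an unadjusted p under 0.05. Passing after adjustment needed more: 1.80 ± 0.37 near 1810013L24Rik and -2.21 ± 0.47 inside Arhgap5 did not pass. In the MACS2 set 0 of 701 passed and 37 were under 0.05 before adjustment (5.28%). Averaging over the intervals of a gene lowered the median SE to 0.184, and 0 of 11081 genes passed, with 512 under 0.05 (4.62%). Averaging over windows of 100 kb lowered it to 0.164, and 0 of 12835 windows passed, with 554 under 0.05 (4.32%).

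Ptger4 itself showed no detectable interaction. The interval over its promoter (chromosome 15, 5243427 to 5245375) scored 0.182 and 0.253 in WT vehicle, 0.214 and 0.179 in WT AA, 0.124 and 0.30 in KO vehicle, and 0.141 and 0.158 in KO AA. The groups overlapped, and both genotypes carried the mark there, so this interval gives no check of the KO label. Its interaction was -0.19 ± 0.36 (95% interval -0.93 to 0.54), and it became 0.29 without KO vehicle replicate 2. Across all 9 intervals assigned to Ptger4 the interaction ranged from -0.78 ± 0.45 (5279872 to 5281141, 35685 bp from the gene, limma unadjusted p = 0.0929) to 0.35 ± 0.57, and none had an unadjusted p under 0.05. Leaving out 1 of the 8 libraries gave -1.10 to -0.46 for the lowest of them and -0.37 to 1.07 for the highest, and 4 of the 9 intervals changed sign in this way.

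Promoters of some genes named here are shown as the 250 bases before the start of the gene. They are given 5′ to 3′ on the strand of the gene, from RefSeq (GRCm38.p6). CREB binds the cAMP response element, and the core of that element was searched as TGACG or its reverse complement CGTCA, with matches in capitals. Ptger4 is the targeted gene, Tnrc6a had the smallest p of any promoter interval named here, Fabp2 and Acadvl led the fatty acid list in opposite directions, and Fosb and Junb are cAMP-induced AP-1 genes whose promoters hold a match.
Ptger4 (chr15:5244188-5244437, minus strand): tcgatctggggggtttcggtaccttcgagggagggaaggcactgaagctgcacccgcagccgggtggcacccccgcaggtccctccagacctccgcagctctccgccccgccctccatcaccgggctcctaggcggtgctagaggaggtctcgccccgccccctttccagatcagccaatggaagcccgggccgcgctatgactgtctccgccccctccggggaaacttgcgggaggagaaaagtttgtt
Tnrc6a (chr7:123123635-123123884, plus strand): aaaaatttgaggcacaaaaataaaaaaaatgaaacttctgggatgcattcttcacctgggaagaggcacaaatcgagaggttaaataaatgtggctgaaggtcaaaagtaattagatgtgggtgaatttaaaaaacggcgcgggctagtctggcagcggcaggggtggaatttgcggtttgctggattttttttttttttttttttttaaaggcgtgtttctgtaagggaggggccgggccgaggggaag
Fabp2 (chr3:122894822-122895071, plus strand): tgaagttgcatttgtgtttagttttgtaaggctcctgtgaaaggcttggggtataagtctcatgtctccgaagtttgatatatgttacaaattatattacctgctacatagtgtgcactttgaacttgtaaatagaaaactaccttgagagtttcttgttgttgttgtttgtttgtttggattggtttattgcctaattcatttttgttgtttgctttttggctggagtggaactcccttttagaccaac
Acadvl (chr11:70015429-70015678, minus strand): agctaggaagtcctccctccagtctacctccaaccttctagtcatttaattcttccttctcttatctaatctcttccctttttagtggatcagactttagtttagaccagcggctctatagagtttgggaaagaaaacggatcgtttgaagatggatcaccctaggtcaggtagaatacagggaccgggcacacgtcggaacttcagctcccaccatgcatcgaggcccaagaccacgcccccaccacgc
Fosb (chr7:19310046-19310295, minus strand): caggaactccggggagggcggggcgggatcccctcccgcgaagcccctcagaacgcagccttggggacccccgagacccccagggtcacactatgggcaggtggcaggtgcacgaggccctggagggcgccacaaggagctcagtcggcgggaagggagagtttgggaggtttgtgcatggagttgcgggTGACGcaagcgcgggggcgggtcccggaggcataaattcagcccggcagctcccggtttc
Junb (chr8:84978749-84978998, minus strand): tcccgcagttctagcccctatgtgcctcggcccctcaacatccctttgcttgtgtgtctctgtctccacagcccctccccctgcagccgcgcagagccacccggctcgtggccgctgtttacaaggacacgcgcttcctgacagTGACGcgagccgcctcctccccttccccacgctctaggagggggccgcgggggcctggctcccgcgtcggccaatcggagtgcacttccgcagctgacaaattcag
The core was found once in the Fosb and once in the Junb sequence and in none of the other 4. Fosb and Junb had negative interactions, given below, and neither had an unadjusted p under 0.05 (limma). Among promoters searched but not shown, that of E2f1, whose interaction given below was positive, holds 2 matches. That of Per1 holds 1, and those of Egf and Sdha hold 0. Over all 21263 promoters of this length in the table, 20.2% hold it.

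The 20 intervals with the smallest p, 10 in each direction among those with a gene within 50 kb, are described although none passed (adjusted p = 0.9998 for each). In all 20 the response to AA had opposite signs in the 2 genotypes, and in all 20 every KO difference lay beyond every WT difference. Such separation was also found at 18.1% of all intervals, and the intervals were picked for their small p, so neither count is evidence of its own.

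Among the 10 positive intervals, the interval at Smo stands out for its strength. Smo encodes Smoothened, the signal transducer of the Hedgehog pathway, and the interval (chromosome 6, 29747487 to 29749343) lies inside the gene span, 11990 bp from its nearer end. Its mean score was above 99.98% of all intervals. It scored 1.01 and 0.843 in WT vehicle, 0.601 and 0.907 in WT AA, 0.675 and 0.631 in KO vehicle, and 0.929 and 0.951 in KO AA. The 2 KO treatments did not overlap, whereas the 2 WT treatments did. The interaction was 0.79 ± 0.17 (unadjusted p = 8.91e-05), from a WT response of -0.30 and a KO response of 0.49. It was 0.52 without WT AA replicate 1 and 1.07 without WT AA replicate 2. In a fit without a trend of the variance with the score, the SE was 0.38 in place of 0.17. The small p at Smo therefore depends on that variance model.

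At Slc14a1, a urea transporter gene on the stem cell list (interval on chromosome 18, 78124022 to 78124774, inside the gene span), the scores were 0.362 and 0.254 in WT vehicle, 0.0904 and 0.170 in WT AA, 0.112 and 0.0959 in KO vehicle, and 0.201 and 0.169 in KO AA. AA lay below vehicle in WT and above it in KO, without overlap in either genotype. The interaction was 1.56 ± 0.36. At Mgst1, a microsomal glutathione transferase gene, the interval lay 29335 bp from the gene (chromosome 6, 138109544 to 138111192), with 0.180 and 0.279 in WT vehicle, 0.131 and 0.101 in WT AA, 0.0756 and 0.0959 in KO vehicle, and 0.206 and 0.207 in KO AA. Its interaction was 1.59 ± 0.35. The smallest p of all belonged to an interval 5959 bp from 1810013L24Rik (chromosome 16, 8823147 to 8824141; 1.80 ± 0.37), where KO AA scored 0.265 and 0.293 against 0.0489 and 0.117 in KO vehicle.

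The other 6 positive intervals lay near Lhfpl2 (2.20 ± 0.50), near Sdhaf4, an assembly factor of succinate dehydrogenase (1.84 ± 0.43), inside Sorbs2, an actin adaptor (1.65 ± 0.40), near Gm4846 (1.74 ± 0.43), near Krba1 (1.95 ± 0.48) and inside Ly86, which encodes a partner of a Toll-like receptor homologue on immune cells (2.18 ± 0.55). At Ly86 the WT scores went from 0.144 and 0.249 with vehicle to 0.0117 and 0.0475 with AA. The 4 intervals near Lhfpl2, Sdhaf4, Gm4846 and Krba1 lay 32824 to 46846 bp from the gene, so the gene names there are only the nearest ones.

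Among the 10 negative intervals, Tnrc6a was the one over a promoter. Tnrc6a encodes a GW182 protein, which carries out silencing by microRNAs, and its promoter sequence is printed above. The interval (chromosome 7, 123123127 to 123124521) scored 0.169 and 0.184 in WT vehicle, 0.185 and 0.275 in WT AA, 0.255 and 0.310 in KO vehicle, and 0.0810 and 0.0943 in KO AA. The KO AA libraries lay below all 6 others, and the WT groups were nearly level. The interaction was -1.50 ± 0.33, most of it from the KO response of -1.22.

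At Gucy2c, the guanylate cyclase receptor that senses guanylin in the intestinal epithelium, an interval inside the gene (chromosome 6, 136745561 to 136747274) scored 0.0886 and 0.0694 in WT vehicle, 0.170 and 0.238 in WT AA, 0.205 and 0.142 in KO vehicle, and 0.0588 and 0.0747 in KO AA. The interaction was -1.81 ± 0.41, and the scores with AA in KO were at the level of WT vehicle. At Fosl1, which encodes the AP-1 subunit FRA1 (chromosome 19, 5448227 to 5449652), the scores were 0.0946 and 0.0811, 0.181 and 0.199, 0.245 and 0.152, and 0.103 and 0.0568 in the same order of groups, with an interaction of -1.66 ± 0.39. The stronger interval next to it (5446674 to 5448128) had -0.67 ± 0.34 (limma unadjusted p = 0.0624), from 0.106 and 0.0918 in WT vehicle and 0.235 and 0.283 in WT AA to 0.217 and 0.117 in KO vehicle and 0.218 and 0.224 in KO AA. In that stronger interval AA lay above vehicle in both genotypes, so the KO libraries did not follow the order seen in the first.

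Others among the 10 negative intervals lay inside Arhgap5 (-2.21 ± 0.47), Wwp1, a ubiquitin ligase (-2.11 ± 0.45), Ncoa1, a nuclear receptor coactivator (-1.66 ± 0.40), and Mlana, a melanocyte protein (-2.05 ± 0.49), and near Gm826 (-1.70 ± 0.36) and Adsl, an enzyme of purine synthesis (-1.27 ± 0.31). At Arhgap5, WT vehicle scored 0.0564 and 0.0665 and WT AA 0.266 and 0.178, while KO went from 0.195 and 0.133 to 0.0809 and 0.0299.

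**Figure D1:**
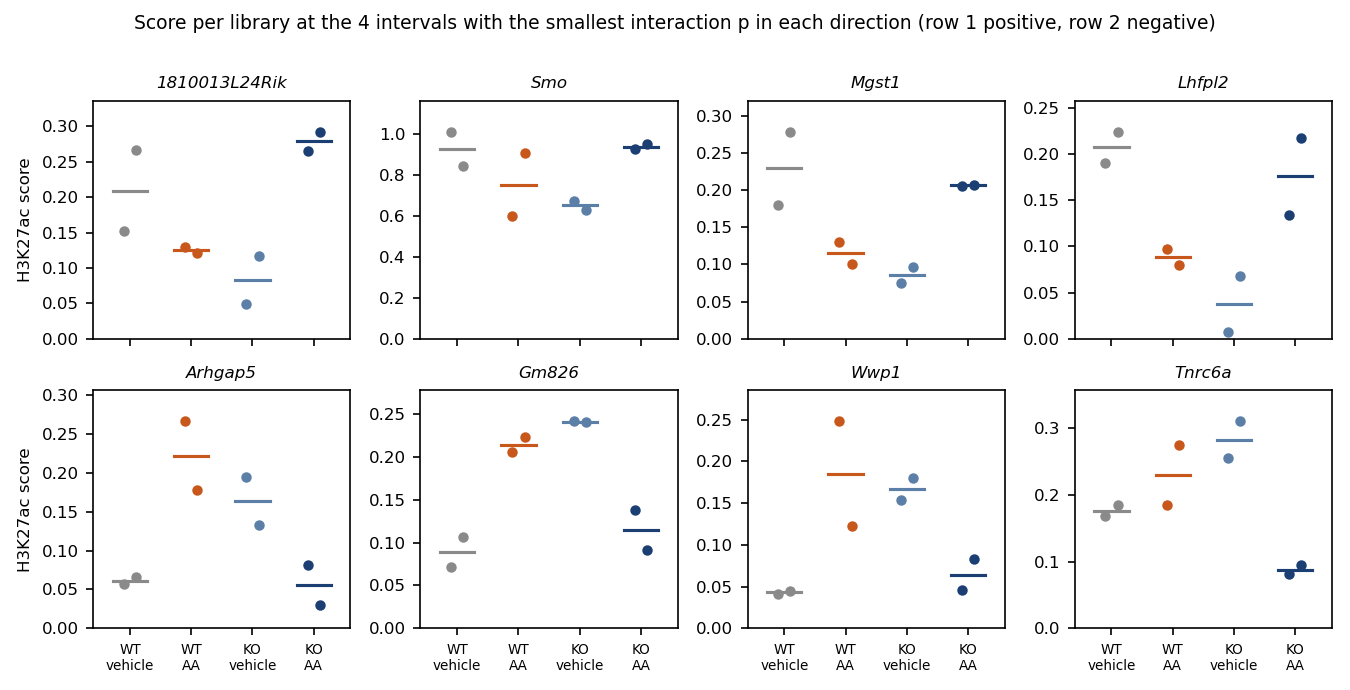
H3K27ac score (linear axis from 0) of the 8 compared libraries at the 4 intervals with the smallest interaction p in each direction, titled by nearest gene. Points are libraries and bars are means of 2. In the upper 4 panels the mean with AA lies below that with vehicle in WT and above it in KO, and in the lower 4 panels the reverse, as at Arhgap5 (WT 0.0564 and 0.0665 to 0.266 and 0.178).

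Of the 40 intervals next to the 20 on either side, 21 had the same direction and 1 had an unadjusted p under 0.05, the one to the left of the Arhgap5 interval (-1.56, limma unadjusted p = 0.00456). Over all adjacent pairs of intervals 51.6% had the same direction.

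Some single loci reached the threshold when the PGE2 libraries did not set the spread. In a fit of the 8 compared libraries alone, 1 of 166471 SEACR intervals passed (0.000601%). It lies 7414 bp from Tmem196, a transmembrane protein gene (chromosome 12, 120028656 to 120029032), and its mean score was above 99.98% of intervals. The scores were 1.01 and 1.34 in WT vehicle, 0.758 and 0.773 in WT AA, 0.719 and 0.640 in KO vehicle, and 0.972 and 1.00 in KO AA. Neither genotype overlapped between treatments. The interaction was 1.07 ± 0.12 with 8 libraries (limma adjusted p = 0.00109) and 1.07 ± 0.30 with 12 (unadjusted p = 0.00144), and leaving out each of the 8 libraries gave 0.88 to 1.27. The KO PGE2 libraries differed from each other there (0.599 and 1.62). How far the SE with 8 libraries depends on the trend of the variance with the score was not tested, here or at the loci below.

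An interval 14527 bp from Dpy19l2, a gene needed for sperm head formation, came near the threshold in that fit (chromosome 9, 24541614 to 24542520). It was among the strongest of all, with 3.99 and 4.16 in WT vehicle, 4.76 and 4.89 in WT AA, 4.63 and 4.73 in KO vehicle, and 4.12 and 3.76 in KO AA. AA lay above vehicle in WT and below it in KO, without overlap. KO PGE2 scored 5.31 and 7.25 there. Both this interval and the Tmem196 interval scored far above the library medians. Read placement was not tested at either, so their scores may not measure H3K27ac there. The interaction was -0.49 ± 0.071 with 8 libraries (limma adjusted p = 0.0545) and -0.49 ± 0.15 with 12 libraries, and leaving out each of the 8 gave -0.55 to -0.42.

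A block at the start of chromosome 9 scored far above the median interval, with a SEACR score of 21.2 to 36.3 in the 8 libraries against library medians of 0.112 to 0.122. How well reads can be placed in that block was not tested, so its scores may not measure H3K27ac there. All 18 MACS2 intervals there, between 3000286 and 3038229 with no protein-coding gene within 50 kb, had a negative interaction (53.2% of all MACS2 intervals), from -0.80 to -0.49, and in all 18 the KO differences lay below the WT differences, against 12.8% of all MACS2 intervals. They lie inside a single SEACR interval and share its signal, so they are not separate observations. With 8 libraries 4 of the 18 passed (limma), and these were the only MACS2 intervals that did (0.571% of 701). The interval with the smallest p (3034479 to 3035452) scored 33.0 and 39.9 in WT vehicle, 51.9 and 44.2 in WT AA, 34.6 and 35.1 in KO vehicle, and 28.1 and 24.7 in KO AA, with an interaction of -0.80 ± 0.17 (adjusted p = 0.0127). The SEACR interval across the block scored 26.2 and 29.5, 36.3 and 30.5, 29.4 and 28.7, and 24.5 and 21.2 in the same order, with -0.61 ± 0.17 with 8 libraries and -0.61 ± 0.38 with 12, and it did not pass. KO PGE2 scored 38.9 and 72.1 there.

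In the windows of 100 kb, the interaction with the smallest p was at Cplx2, which encodes complexin 2, a regulator of vesicle fusion in neurons and secretory cells (chromosome 13, 54300001 to 54400000). All 11 intervals in it were positive; 57.5% of all windows had a positive mean, and since the window was picked by this mean the shared sign is only a description. The score of the window, from the mean of log2 values, was 0.132 in both WT vehicle libraries, 0.0794 and 0.0843 in WT AA, 0.101 in both KO vehicle libraries, and 0.143 and 0.145 in KO AA. The 4 groups were apart, with little spread within each; the KO differences lay beyond the WT differences in 21.5% of all windows. The interaction was 0.79 ± 0.16 (limma adjusted p = 0.361), with 0.76 to 0.81 when any of the 8 libraries was left out. The adjusted p was 0.0616 with the 8 libraries alone and 0.0356 when libraries were weighted by their quality, where it was the only window to pass (0.00779% of 12835).

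The opposite sign was found across a histone gene cluster (chromosome 13, 21700001 to 21800000), which holds H1f5, H3c10, H4c11, H4c12 and several H2A and H2B genes and supplies core histones during DNA replication. All 11 intervals were negative, again in a window picked by its mean (42.5% of all windows had a negative mean). The window scored 0.123 and 0.142 in WT vehicle, 0.204 and 0.182 in WT AA, 0.142 and 0.141 in KO vehicle, and 0.120 and 0.111 in KO AA. AA lay above vehicle in WT and below it in KO, without overlap, and the interaction was -0.60 ± 0.15 (adjusted p = 0.695, and 0.0846 with 8 libraries). Histone genes are near-identical copies, so reads may have been divided among them.

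Of the other windows named by smallest p, Gse1 was positive in 14 of 15 intervals (0.61 ± 0.15) and Nav3 in 5 of 6 (0.72 ± 0.18). The window of Tbl1x, a subunit of the NCoR corepressor complex, and Cldn34-ps was negative in all 5 intervals (-0.75 ± 0.18). The lowest of these intervals (-1.73 ± 0.61) was assigned to Cldn34-ps. The window of Supt3, a subunit of the SAGA acetyltransferase complex, was negative in 12 of 13 (-0.63 ± 0.17). None of these windows passed (adjusted p = 0.695 for the first 3 and 0.996 for Supt3). Among gene means, Tspyl1 (0.81 ± 0.17), Ndufa10, a subunit of respiratory complex I (0.71 ± 0.17), and Larp6 (0.66 ± 0.15) led the positive side, and Zwilch, a kinetochore protein (-0.77 ± 0.17), Ogfod1 (-0.91 ± 0.23) and 9030025P20Rik (-0.77 ± 0.20) the negative side, each with adjusted p = 0.998. The Zwilch value includes an interval over the promoter of its neighbour Rpl4 (-0.69 ± 0.28). Among MACS2 intervals with a positive interaction, the smallest p belonged to the promoter interval of Mrpl39, a mitochondrial ribosomal protein gene (2.43 ± 0.74, adjusted p = 0.715). Siglecf (1.69 ± 0.62) and Fyn, a Src family kinase (1.85 ± 0.71), followed on that side.

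**Figure D2:**
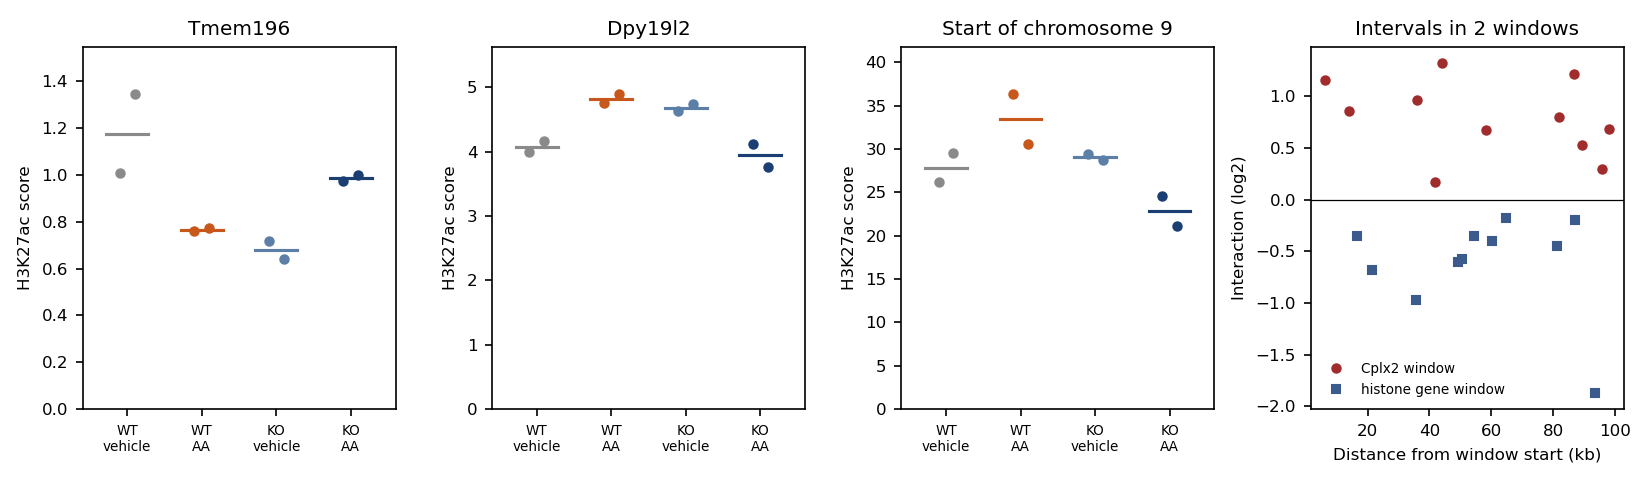
Left 3 panels: H3K27ac score (linear axis from 0) of the 8 compared libraries at the SEACR intervals near Tmem196 and Dpy19l2 and at the start of chromosome 9, with points for libraries and bars for means of 2. Right panel: interaction (log2) of each interval in the Cplx2 window and the histone gene window by distance from the window start, where all 11 are positive in the first and all 11 negative in the second.

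Across the genome, the interaction leaned with the strength of the mark. The median interaction of all SEACR intervals was 0.030, with 52.8% positive. Among the 8436 intervals over a RefSeq promoter it was -0.090, with 39.2% positive, and beyond 50 kb of any gene (36016 intervals) it was 0.080, with 57.0% positive. Among the 1665 strongest intervals (top 1% by mean score over 12 libraries) it was -0.18, with 24.6% positive. Without WT vehicle replicate 1 the top 1% median was -0.073 and the promoter median -0.026, and without WT vehicle replicate 2 they were -0.28 and -0.15. Of the top 1%, 19 were positive and 104 negative at an unadjusted p under 0.05, against 2.27% and 1.87% of all intervals. The lean was small beside the SE of a single interval in either class (median 0.359 over promoters and 0.270 in the top 1%).

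In the top 1%, intervals over promoters (-0.21), inside genes (-0.18), near genes (-0.18) and beyond 50 kb (-0.14) all had negative medians. Among the weakest 25% of intervals the promoter class had a median of 0.079 and the class beyond 50 kb 0.063. Promoters of higher GC content leaned further down: the median went from -0.038 in the 2109 promoter intervals of lowest GC to -0.13 in the 2109 of highest GC. Promoter intervals with the CREB core TGACG or CGTCA (2353 of 8436) had a median of -0.13, and those without it -0.074. The share with the core was 27.9% in these intervals and 20.2% in all promoters of that length, and GC content was not held equal in that comparison. Intervals with the full palindrome TGACGTCA (244) had -0.14, with the AP-1 motif TGACTCA or TGAGTCA (380) -0.060, and with the TCF motif CTTTGAT or ATCAAAG (236) -0.078, where the matches of the full palindrome are a subset of those of the core.

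**Figure D3:**
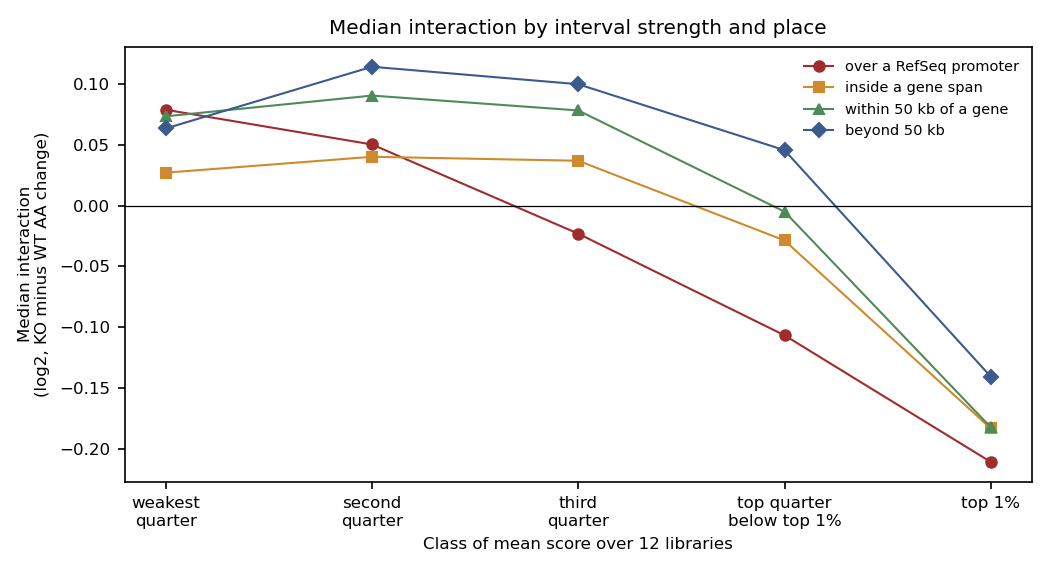
Median interaction (log2, KO response to AA minus WT response) of SEACR intervals in 5 classes of mean score (x axis), for 4 classes of place (lines). Promoter intervals go from 0.079 in the weakest class to -0.21 in the top 1%, and all 4 lines are below 0 in the top 1%.

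The lean was then measured per library, as the median log2 score over promoters minus that beyond 50 kb. It was 0.33 and 0.47 in WT vehicle, 0.51 and 0.45 in WT AA, 0.38 and 0.36 in KO vehicle, and 0.28 in both KO AA libraries. The KO groups did not overlap and the WT groups did. The difference went up by 0.078 with AA in WT and down by 0.089 in KO, an interaction of -0.17. An exact permutation test over 36 relabelings within genotype gave a two-sided p of 0.111, with 0.0556 the smallest p it can give. This test, used below for the top 1% too, cannot decide on the interaction. Its null is no AA effect in either genotype, it could not reach 0.05, and the lean was first seen in these libraries. The interaction of the promoter difference was -0.099 without WT vehicle replicate 1 and -0.23 without replicate 2, and that library pair had the largest SD (0.096). For the top 1% minus all intervals the interaction was -0.25 (0.72 and 0.94 in WT vehicle, 1.01 and 0.93 in WT AA, 0.80 and 0.78 in KO vehicle, 0.70 and 0.67 in KO AA), with the same exact permutation p of 0.111. It was -0.14 without WT vehicle replicate 1 and -0.36 without WT vehicle replicate 2. Under cyclic loess, which removes differences that depend on strength, the top 1% median was 0.0011 and the promoter median -0.057. How much of the lean is set by the contrast of signal to background in each library was not tested.

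**Figure D4:**
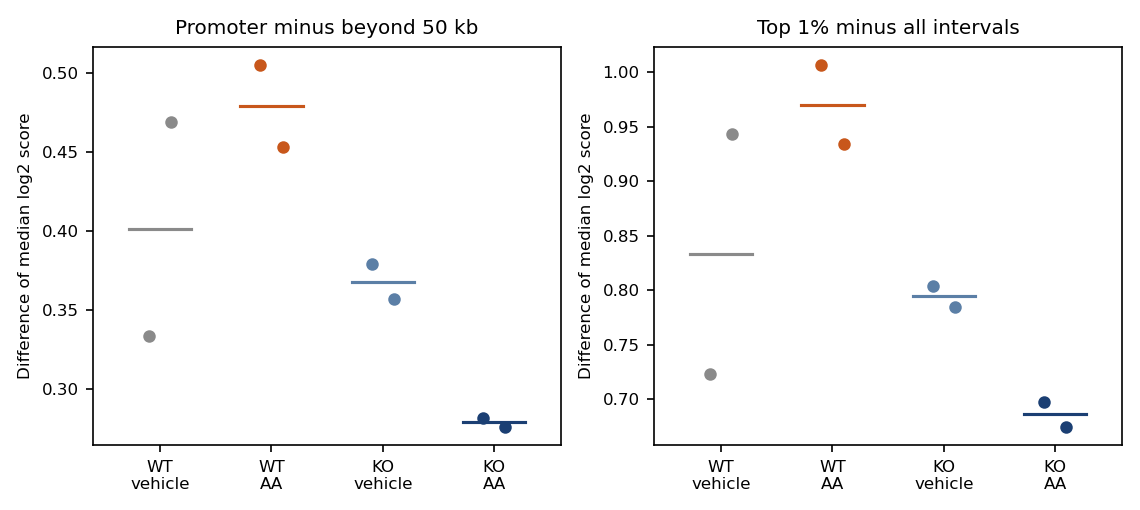
Difference of median log2 score between promoter intervals and intervals beyond 50 kb of a gene (left) and between the strongest 1% and all intervals (right), per library. Points are libraries and bars are means of 2. KO AA lies below KO vehicle in both panels without overlap, while the WT groups overlap in both.

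The gene lists were read against this background. The strongest interval of a gene stood for it, and over all 17495 genes the median interaction was -0.062, with 56.6% negative and 43.4% positive. Of the 484 listed genes with an interval, 20 had an unadjusted p under 0.05 (4.13%, 11 positive and 9 negative), against 4.32% of all genes, and 0 passed over all intervals. Every KO difference lay beyond every WT difference at 110 of the 484 genes (22.7%), against 19.2% of all genes. The counts below are counts of signs, and no list was tested as a set. With the mean over all intervals of a gene in place of the strongest interval, the medians of AA release (0.017), eicosanoid synthesis (0.081), cAMP targets (0.038) and Wnt targets (0.083) became positive. The median of all genes changed sign in the same way, from -0.062 to 0.015. The change of sign alone therefore does not set those lists apart.

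Genes of AA supply and prostanoid synthesis had no common direction. For release and activation of AA the signs were 6 positive and 12 negative (median -0.052). Fads1, the desaturase that makes AA, had 1.02 ± 0.43 at an interval 10739 bp away, where WT scored 0.132 and 0.163 with vehicle and 0.101 and 0.0129 with AA, and the 4 KO libraries lay between 0.175 and 0.201. Elovl5, a fatty acid elongase, had -0.58 ± 0.27. For eicosanoid synthesis, transport and breakdown the signs were 9 and 12 (median -0.018). Cbr1, a carbonyl reductase that acts on PGE2, had -0.54 ± 0.24, Ptgs1 0.59 ± 0.45, and Ptges -0.72 ± 0.50. These 3 unadjusted p-values under 0.05 (Fads1, Elovl5 and Cbr1, 0.0258, 0.0419 and 0.0338) did not pass after adjustment over all intervals.

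Among the prostanoid receptors 6 of 7 were negative (median -0.19), and none had an unadjusted p under 0.05. Ptger2, which encodes EP2, the other receptor through which PGE2 raises cAMP, was the positive one (0.29 ± 0.34, at an interval 45075 bp away). Ptgir, the prostacyclin receptor gene, had the lowest value (-0.91 ± 0.61), with 0.275 in KO vehicle replicate 2 and 0.0516 to 0.108 in the other 7 libraries, so that value rests largely on 1 library.

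Downstream of the receptor, the signalling genes and their targets both had mixed signs. The positive share was 59.3% in the cAMP and CREB pathway and 35% among the cAMP targets, against 43.4% of all genes. With the mean over all intervals of a gene, the median of the targets became positive, as given above. In the cAMP and CREB pathway 16 were positive and 11 negative (median 0.10). Adcy3, an adenylyl cyclase gene, had 1.07 ± 0.43, from 0.170 and 0.198 in WT vehicle and 0.0783 and 0.0957 in WT AA to 0.0969 and 0.0904 in KO vehicle and 0.134 and 0.131 in KO AA. Creb1 had -0.34 ± 0.29. Of the 20 cAMP target genes, 7 were positive and 13 negative (median -0.11), none with p under 0.05. Junb, whose promoter is printed above, scored 0.191 and 0.248, 0.309 and 0.270, 0.211 and 0.178, and 0.221 and 0.152 in WT vehicle, WT AA, KO vehicle and KO AA (-0.39 ± 0.29). Fosb had -0.45 ± 0.43 and Nr4a3 0.58 ± 0.41. Among the 15 AP-1 subunits 12 were negative (median -0.32), with Fosl1 (-0.67 ± 0.34) and Jund (-0.65 ± 0.35) the lowest. With the mean over all intervals of a gene in place of the strongest one, the AP-1 median was 0.047, so its sign differs between these summaries.

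The stem cell list had 17 negative and 6 positive genes (median -0.094, and 0.091 with the mean over all intervals of a gene). Lgr5, the marker of crypt base stem cells, scored 0.171 and 0.233 in WT vehicle, 0.109 and 0.185 in WT AA, 0.190 and 0.187 in KO vehicle, and 0.225 and 0.190 in KO AA, and its interaction was 0.46 ± 0.34 (limma unadjusted p = 0.189). Ascl2 had 0.10 ± 0.31, Olfm4 -0.08 ± 0.43, Hopx -0.43 ± 0.27 and Rnf43 -0.41 ± 0.26. Of the Wnt targets 17 of 22 were negative (median -0.17), and Tcf7, which encodes the TCF1 factor, had the one p under 0.05 (1.05 ± 0.44). In the fetal-like and regenerative list 24 of 29 were negative (median -0.18). Ccn2, a matrix protein gene and YAP target (-0.60 ± 0.31), and the EGF receptor ligand gene Areg (-0.54 ± 0.30) were among those with the smallest p-values, and Ly6a, which encodes SCA1, had -0.18 ± 0.31. In the Hippo list Lats1 (-0.82 ± 0.35) and Sav1 (1.08 ± 0.47), which both restrain YAP, had opposite signs. Egf (-0.96 ± 0.41) led the EGF family, where 12 of 15 were negative.

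Lists of epithelial identity and housekeeping genes were also mostly negative. Of the 15 epithelial markers 14 were negative (median -0.33, and -0.12 with the mean over all intervals), with Cldn3 at -0.45 ± 0.25 and Epcam at -0.30 ± 0.25 and none under p 0.05. Their summed score was 3.29 and 4.35 in WT vehicle, 4.54 and 4.16 in WT AA, 3.55 and 3.56 in KO vehicle, and 3.16 and 3.33 in KO AA. The KO groups did not overlap, and the WT groups did. Of the 20 housekeeping genes 18 were negative (median -0.29, and -0.034 with the mean over all intervals), with Sdha, a subunit of succinate dehydrogenase, at -0.63 ± 0.30. Among the transcription factors of intestinal identity 16 of 20 were negative, with Klf5 at -0.54 ± 0.25 and Cdx2 at -0.45 ± 0.26. The lean of strong intervals given above moves with these lists, and its part in them was not tested.

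Differentiated lineages split. In the enterocyte list 16 were positive and 16 negative (median 0.008). Fabp2, the intestinal fatty acid-binding protein gene, had -0.83 ± 0.27 (limma unadjusted p = 0.00497) over its promoter, with 0.244 and 0.296 in WT vehicle, 0.365 and 0.307 in WT AA, 0.308 and 0.298 in KO vehicle, and 0.166 and 0.208 in KO AA. The KO AA libraries were the lowest of the 8. Apoa1, an apolipoprotein gene, had 0.77 ± 0.36, with 0.308 and 0.178 in WT vehicle, 0.264 and 0.142 in WT AA, 0.0991 and 0.113 in KO vehicle, and 0.176 and 0.191 in KO AA. In fatty acid oxidation, Acadvl, the dehydrogenase for very long chain fatty acids, had 1.16 ± 0.40 over its promoter, with 0.189 and 0.226, 0.146 and 0.0991, 0.0992 and 0.122, and 0.223 and 0.172 in the 4 groups in order, without overlap between treatments in either genotype. The whole list of fatty acid and PPAR genes had 12 positive and 16 negative signs (median -0.061). In the enteroendocrine list 11 of 17 were positive, with the granule protein gene Scg3 at 1.25 ± 0.42 and Chga at 0.92 ± 0.50. E2f1, a cell cycle regulator, had 1.05 ± 0.44, and 20 of the 29 proliferation genes were negative. Goblet cell (9 positive, 10 negative), Paneth cell (7 and 6) and tuft cell genes (9 and 8) had no common sign.

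Of the cell types outside the epithelium, immune markers leaned up: 12 of 14 were positive (median 0.31, 0.12 without WT AA replicate 1 and 0.041 with the mean over all intervals of a gene), and none had a p under 0.05. Their summed score was 2.10 and 2.02 in WT vehicle, 1.44 and 1.88 in WT AA, 1.72 and 2.08 in KO vehicle, and 2.02 and 1.93 in KO AA, with 0 markers at 0 in any library. The KO groups overlapped. Fibroblast and smooth muscle markers had 7 positive and 6 negative signs, and endothelial markers 5 and 6. The part of other cell types in these values was not tested.

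**Figure D5:**
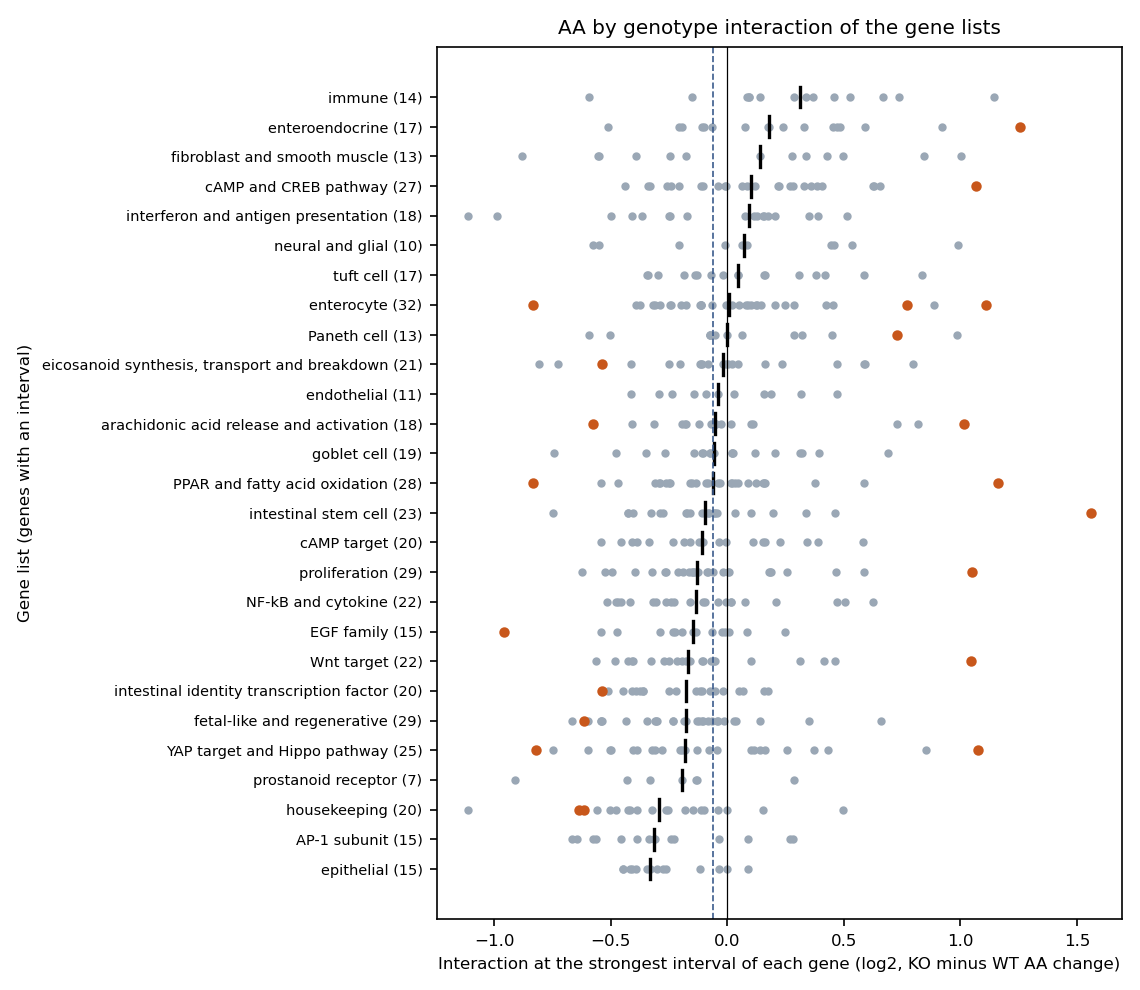
Interaction (log2) at the strongest interval of each gene in the 27 lists, sorted by list median. Each point is a gene, orange where the unadjusted p is under 0.05 (20 genes), black ticks are list medians, the solid line is 0 and the dashed line is the median of all genes (-0.062). Epithelial markers (-0.33) and immune markers (0.31) are at the 2 ends.

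Last, the AA interaction was set against the PGE2 interaction by a contrast in which the vehicle libraries cancel, (KO AA minus KO PGE2) minus (WT AA minus WT PGE2). Of the SEACR intervals 0 of 166471 passed in limma, and 10057 had an unadjusted p under 0.05 (6.04%), 7558 positive and 2499 negative. After quantile normalization the split was 4942 and 4637, after median centring 3951 and 5198, and after cyclic loess 4199 and 5282. Without KO PGE2 replicate 1 the split was 12217 and 2725, and without KO PGE2 replicate 2 it was 6589 and 6665. The excess of positive values therefore depended on the scaling and on single KO PGE2 libraries. The negative side was led by an interval inside Cdk5rap2, a centrosomal protein gene (-1.75 ± 0.31, adjusted p = 0.728), where the AA interaction was -0.87 and the PGE2 interaction 0.88, and the positive side by one near Ly6g2 (1.98 ± 0.37, adjusted p = 0.778), where they were 1.24 and -0.74. These 2 values share the vehicle libraries. Without KO PGE2 replicate 1 there were 15 passing SEACR intervals, and without KO PGE2 replicate 2 there were 2. No gene mean (0 of 11081) and no window (0 of 12835) passed, with 892 and 1451 at an unadjusted p under 0.05.

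In the MACS2 set 16 of 701 intervals passed this contrast (2.28%, limma), all 16 negative, and 15 of them lay in the block at the start of chromosome 9. The other lay on chromosome 14 (19418177 to 19418914, -1.20 ± 0.34, adjusted p = 0.0239) with no protein-coding gene within 50 kb. It scored 114 and 92.0 in WT AA, 98.4 and 112 in WT PGE2, 77.7 and 70.1 in KO AA, and 128 and 237 in KO PGE2. The MACS2 library medians were 0.268 to 0.557, so this interval, like the block, scored far above them. The smallest adjusted p was 3.31e-05, at 3037211 to 3037443 on chromosome 9 (-1.38 ± 0.25), which scored 10.2 and 9.53 in WT AA, 9.39 and 10.6 in WT PGE2, 7.03 and 5.53 in KO AA, and 12.3 and 22.7 in KO PGE2. The WT groups overlapped, and the KO PGE2 libraries differed from each other by more than any other pair. The count was 0 without WT PGE2 replicate 1, 2 without WT PGE2 replicate 2, 1 without WT AA replicate 1, 3 without KO AA replicate 2, 43 without KO PGE2 replicate 1 and 0 without a trend in the variance, so these calls rest on single libraries and on the variance model. The doubt about read placement in the block applies to this contrast too, and read placement at the chromosome 14 interval was not tested either.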

How the data were processed

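H3K27ac CUT&RUN of mouse intestinal organoids was given in 12 libraries, 6 groups of 2. The authors deposited 1 signal value, the peak score, for every interval and library, at 1 interval set per caller; per the submitters' processing notes the tools were SEACR and MACS2 and the build mm10. Neither the aligner nor the scaling of scores is given in the sources used here, nor whether interval starts count from 0 or 1, so coordinates are as deposited. Samples named EP4KO in the deposited table were read as Ptger4 KO.

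The scale of analysis was log2 of the score plus a pseudocount, 0.0579 for SEACR and 0.182 for MACS2, each the 10th percentile of the scores above 0. Intervals above it in at least 2 of 12 libraries were kept. Such a scale understates changes of low intervals. limma 3.58.1 (R 4.3.3) was fitted to all 12 libraries as 6 groups (6 residual and 20.1 prior degrees of freedom for SEACR), with eBayes and a variance trend, two-sided tests and Benjamini-Hochberg adjustment over all features, at 0.05. Scripts were tested on simulated data. The same fit was run on means over genes with 3 or more intervals and over windows of 100 kb with 5 or more.

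Intervals were assigned to the nearest protein-coding gene of RefSeq GRCm38.p6 (21896 genes) within 50 kb. Whether an interval is exonic or intronic is not known here. A promoter interval overlaps the 250 bases before to 50 after a RefSeq start, and promoters of chromosome 18 were not used. Of 527 list symbols 525 matched. Members and lists were chosen with earlier results of these data known. Named intervals were the 10 with the smallest p in each direction (3 for other sets), since none passed; list genes named include the 3 with the smallest p per list, and others were chosen for their role. Tmem196, Dpy19l2, the chromosome 9 block and the chromosome 14 interval were named after their values were seen. Alternatives covered scaling, filters, pseudocounts, weights, the replicate block and leaving out libraries. Some named genes are not reported here.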

Additional observations from a re-analysis of the deposited data

How the results depend on the processing

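The count of passing features was 0 for gene means under all alternatives run, and for the AA interaction in the other sets it was 0 except as follows. For SEACR intervals 1 passed with only the 8 compared libraries, and leaving out 1 library each gave 0 to 2 (2 without either KO PGE2 library, at Tmem196 and Dpy19l2). For MACS2 intervals 1 passed with cyclic loess (at Chl1), 4 with the 8 libraries, and 0 to 15 when leaving out 1 library each: 14 without KO PGE2 replicate 1, of which 12 lay at the start of chromosome 9, and 15 without replicate 2, of which 13 did. For windows 1 passed with array weights. For the AA minus PGE2 contrast 4 passed with quantile normalization, and leaving out 1 library each gave 0 to 15. For MACS2 intervals in that contrast 16 passed, against 2 with quantile normalization, 5 with median centring, 10 with cyclic loess (6 of them positive), 9 for features above the median score, 0 without a variance trend and 5 with only the 8 AA and PGE2 libraries, and leaving out 1 library each gave 0 to 43; these were run after seeing the data. In the fits that leave 1 library in a group, the lone library is assumed to vary like the other groups. Counts at an unadjusted p under 0.05 moved by over 1.5 times for windows (554; 1064 with array weights, 1025 with 8 libraries, 944 and 954 without KO PGE2 replicate 1 or 2, 363 without WT vehicle replicate 1, 888 with median centring, 841 with quantile normalization, 198 for features above the median score, 68 with windows of 1 Mb) and for gene means (512; 848 with array weights, 803 with 8 libraries, 216 for features above the median score), for SEACR intervals (6885; 3430 for features above the median score), for SEACR intervals in the AA minus PGE2 contrast (10057; 5174 likewise), for MACS2 intervals in that contrast (71; 111 without KO PGE2 replicate 1, 45 for features above the median score), and for MACS2 intervals (37; 62 with 8 libraries, 59 with array weights, 60 without either KO PGE2 library, 14 for features above the median score, 23 to 24 without WT vehicle replicate 2 or either KO vehicle library).

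The share of SEACR intervals under 0.05 that were positive was 54.9%, against 46.2% with cyclic loess, 48.1% with quantile normalization and 40.6% with median centring. The promoter lean of -0.17 was -0.091 with cyclic loess, -0.087 with a pseudocount 4 times larger, and -0.23 to -0.099 when 1 library was left out, all in 1 direction. The promoter alternatives were chosen after seeing the data. Positive and negative windows under 0.05 were 358 and 196, against 270 and 618 with median centring, and gene means 258 and 254, against 188 and 530. Of 917 alternative values of 40 named intervals 916 kept their direction, and the Ptger4 promoter value ranged from -0.68 without KO vehicle replicate 1 to 0.29, with changed sign, without replicate 2. Of 324 list medians 216 moved by less than the spread between replicates and 108 by more. Where not stated above, the cause was not tested.

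With the replicate number as a replicate block, 0 features passed for the AA interaction in each set (6845 SEACR intervals under 0.05) and for the AA minus PGE2 contrast of SEACR intervals, and 15 MACS2 intervals passed that contrast, against 16. It changed no other call. Deviations of same-numbered libraries correlated at -0.024 to 0.0097 between groups, so no pairing by number was visible. Single intervals vary much between replicates, so this check cannot settle whether same-numbered libraries shared a culture or batch. The depth is unknown, and over all SEACR intervals the median 95% interval reached 0.959 to either side.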
